A study of Mus musculus with 7 samples.

Results

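Transcripts of the glycosyltransferases that build the sugar chains of platelet glycoproteins and glycolipids were followed in 2 subsets of mouse megakaryocyte progenitors (MkPs). The members were taken by name from the raw count table as the protein-coding genes of the St3gal, St6gal, St6galnac, St8sia, B4galt, B3gnt, B3galt, Galnt, Fut and Mgat families together with C1galt1, C1galt1c1 and Gcnt1. This gave 57 of the 21615 genes in the table, and 53 of them were among the 16653 genes with enough reads to be tested. B3galt1, B3galt5, Galnt16 and St6gal1 were not tested for low counts. Sorted bone marrow MkPs of C57BL/6 wild-type mice (lin- CD117+ Sca-1- CD150+ CD41+) were split by surface CD48, a SLAM family protein, into CD48hi cells (4 libraries, labelled replicates 1, 3, 4 and 5) and CD48-/lo cells (3 libraries, labelled replicates 1, 3 and 4). Between 14033 and 20826 cells went into a CD48hi library and between 5348 and 6497 cells into a CD48-/lo library. For mice of the study in general, the methods put the age at the start of an experiment between 8 and 20 weeks. Total counts ran from 48899037 to 69324909 per library. The labels do not say whether the libraries came from separate mice, so the tests below measure the spread between these libraries.

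Sugar chains are assembled in the Golgi by enzymes that each add 1 sugar. N-glycans on asparagine are branched by MGAT enzymes, given a core fucose by FUT8, extended with galactose and lactosamine by B4GALT and B3GNT enzymes, and capped with sialic acid by ST3GAL and ST6GAL enzymes. O-glycans on serine and threonine are started by GALNT enzymes, extended to core structures by C1GALT1, which needs the chaperone encoded by C1galt1c1, and by GCNT1, and then capped in the same way. Platelet surface proteins such as glycoprotein Ib carry many such chains, and platelets whose galactose is not covered by sialic acid are cleared by a liver lectin.

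No member passed an adjusted p of 0.05 in the edgeR quasi-likelihood test of CD48-/lo over CD48hi, where 0.192% of all genes tested did (32 genes). At an unadjusted p under 0.05, edgeR gave 8 members higher in CD48-/lo cells, beside 8.37% of all genes tested, and 12 members lower, beside 8.87%. DESeq2, the test used in the study, called 3 members higher (St3gal6, Galnt5 and B4galt6), beside 2.47% of all genes, and 9 lower (St8sia6, Mgat1, Fut8, B4galt1, St3gal3, Fut7, Galnt6, Galnt11 and B3gnt2), beside 3.06%. limma voom called Mgat1, St3gal6 and Galnt6. The fitted log2 difference was above 0 for 20 tested members and below 0 for 33, with a median of -0.36 against 0.03 over all genes tested.

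Part of that lower median came with CD48hi replicates 4 and 5. The summed level of the members was 1559, 1597, 3117 and 2612 CPM (counts scaled to a common library size, with TMM factors) in CD48hi replicates 1, 3, 4 and 5, and 1617, 1575 and 1560 CPM in the 3 CD48-/lo libraries. Replicates 4 and 5 thus stood apart, while CD48hi replicates 1 and 3 lay at the level of the CD48-/lo libraries. Both lay above replicates 1 and 3 for 27 tested members (50.9%), as against 27.8% of all genes tested. Without replicates 4 and 5, an alternative chosen after seeing the data, the median was -0.080, with 26 members above 0 and 27 below, and 6 members turned from lower to higher. edgeR then called no gene in the table, and at an unadjusted p under 0.05 it gave 10 members higher, beside 6.89% of all genes in that fit, and 3 lower, beside 3.62%.

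**Figure D1:**
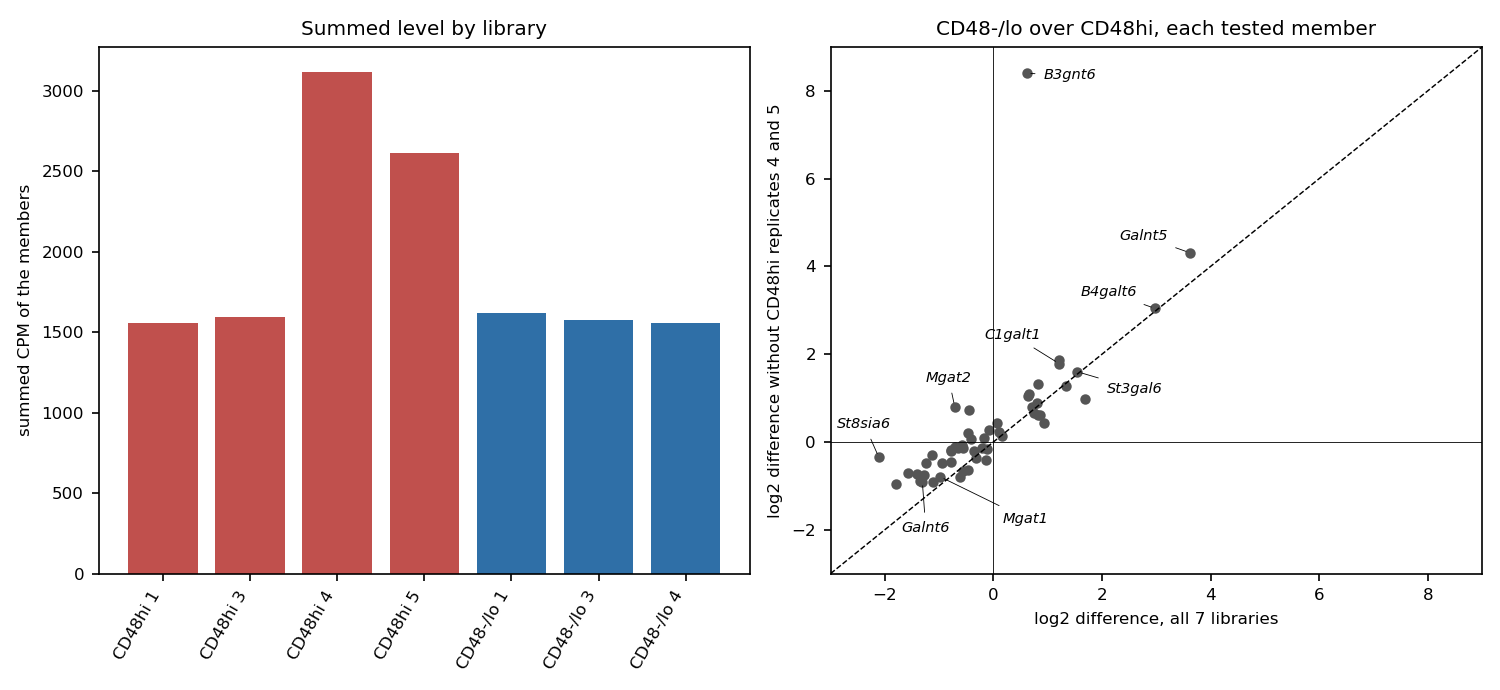
Left, summed CPM of the 57 members in each library. Right, log2 difference of CD48-/lo over CD48hi cells for each tested member with all 7 libraries (x axis) and without CD48hi replicates 4 and 5 (y axis), with the dashed line marking equal values. CD48hi replicates 4 and 5 stand at 3117 and 2612 CPM and the other 5 libraries between 1559 and 1617 CPM, and most points lie above the dashed line. B3gnt6, at the top, is at 0 in both CD48hi libraries left, and its fitted value is no measured fold.

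Among the sialyltransferases the clearest separation was that of St3gal6 (ENSMUSG00000022747, mm10 chr16:58468125-58524243), whose enzyme adds sialic acid to the galactose of lactosamine chains. Its level was 12.6, 5.06, 8.63 and 10.7 CPM in the CD48hi libraries against 20.9, 27.1 and 33.0 CPM in the CD48-/lo libraries. Every CD48-/lo library was thus above every CD48hi library, and replicates 4 and 5 lay between the other CD48hi libraries. The ratio was 2.92 (log2 1.54 ± 0.36 SE, edgeR adjusted p = 0.103), the smallest adjusted p of the members, with DESeq2 at an adjusted p of 0.00662. Of its exonic length, 26.0% overlaps the antisense gene Dcbld2, which was at 0 to 2.37 CPM in these libraries. Without replicates 4 and 5 the difference had a similar size (log2 1.60, edgeR adjusted p = 0.377).

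St3gal4, the most abundant member of its family per kilobase and known for sialic acid on platelet glycoprotein Ib and von Willebrand factor, had 110.5, 79.7, 204 and 146 CPM in CD48hi against 85.8, 104.5 and 81.0 CPM in CD48-/lo libraries. Its groups overlapped (log2 -0.58 ± 0.34, edgeR adjusted p = 0.395). St3gal1, which caps core 1 O-glycans, had 20.1, 21.4, 16.5 and 14.7 CPM in CD48hi libraries against 44.6, 17.4 and 34.4 CPM in CD48-/lo libraries. Here CD48-/lo replicate 3 lay among the CD48hi libraries (log2 0.82 ± 0.35, edgeR adjusted p = 0.269). St3gal2, which also acts on core 1 chains, was above in every CD48-/lo library (12.7 ± 1.5 against 7.78 ± 1.59 CPM, SD, n = 3 and 4, edgeR adjusted p = 0.268). St3gal3, which caps lactosamine, was below in every CD48-/lo library, at 4.84, 4.23, 17.3 and 6.48 CPM against 2.39, 1.64 and 3.05 CPM. Its difference was log2 -1.80 ± 0.55 (edgeR adjusted p = 0.185) and became -0.95 without CD48hi replicates 4 and 5.

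Other sialic acid caps were rare or little separated. St6gal1, which adds sialic acid to N-glycan galactose in another linkage than the ST3GAL enzymes, had 8, 0, 25 and 4 reads in the CD48hi libraries and none in the CD48-/lo libraries. With reads pooled by group, that was at least 7.83-fold higher in CD48hi cells against a floor of 3 counts over the group. The value was 3.33-fold without CD48hi replicate 4. Such a bound covers counting error only and leaves out the spread between libraries. St6galnac4, the most abundant of the enzymes that place sialic acid on O-linked GalNAc, had 82.0 ± 10.7 CPM in CD48hi against 63.8 ± 5.37 CPM in CD48-/lo libraries (SD, n = 4 and 3), with no overlap but an edgeR adjusted p of 0.472. St8sia6, which adds a sialic acid to another one, was at 7.0, 7.47, 54.0 and 30.1 CPM against 8.66, 2.78 and 5.66 CPM. Only CD48hi replicates 4 and 5 were high, and log2 -2.11 ± 0.74 (edgeR adjusted p = 0.222) became -0.35 without them.

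**Figure D2:**
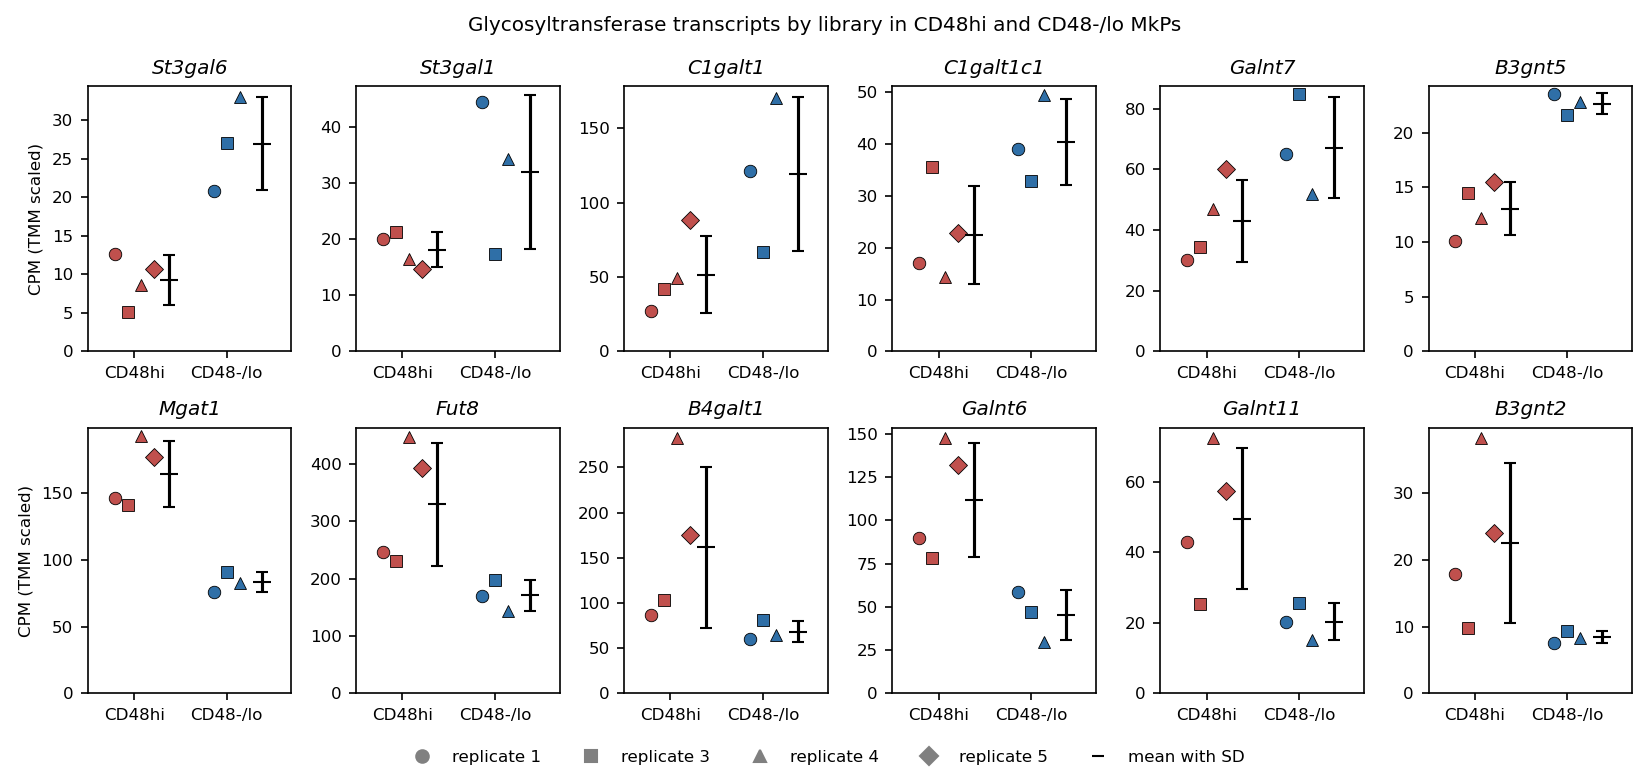
CPM of 12 members in each library, 4 CD48hi (red) and 3 CD48-/lo (blue), with symbols for the label's replicate number and a black bar for mean and SD. The upper row holds members with higher CD48-/lo means, such as St3gal6 (27.0 against 9.25 CPM), and the lower row members with lower CD48-/lo means, such as Mgat1 (83.1 against 164 CPM).

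Enzymes of O-glycan initiation went in both directions. Of the 10 Galnt genes tested, 4 were above 0 and 6 below (median log2 -0.27), and without CD48hi replicates 4 and 5 this turned to 6 above and 4 below (median 0.17). Galnt6 (ENSMUSG00000037280, mm10 chr15:100691813-100729376) was at 89.8, 78.4, 148 and 132 CPM in CD48hi against 58.4, 47.3 and 29.8 CPM in CD48-/lo libraries. The groups did not overlap. The ratio of CD48hi to CD48-/lo cells was 2.48 (log2 -1.31 ± 0.35, edgeR adjusted p = 0.149, DESeq2 adjusted p = 0.0069), and log2 was -0.90 without replicates 4 and 5. Its antisense partner Galnt6os, over 11.4% of the exonic length, was at 0 to 0.39 CPM.

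Galnt7, whose enzyme prefers peptides that already carry GalNAc, was at 30.0, 34.5, 47.0 and 60.2 CPM in CD48hi against 64.9, 84.7 and 51.8 CPM in CD48-/lo libraries. CD48hi replicate 5 was above CD48-/lo replicate 4, so the groups overlapped (log2 0.64 ± 0.32, edgeR adjusted p = 0.325). Galnt11 was at 43.0, 25.4, 72.3 and 57.4 CPM against 20.1, 25.7 and 15.1 CPM, overlapping by a narrow margin at replicate 3 of both groups (log2 -1.29 ± 0.39, edgeR adjusted p = 0.181). Galnt1, the most abundant Galnt gene per kilobase, was at 89.4, 113, 259 and 189.8 CPM against 104, 114 and 135 CPM (log2 -0.47 ± 0.37, edgeR adjusted p = 0.537). Without replicates 4 and 5 its sign turned to log2 0.21. Galnt5 was rare, with 5, 4, 0 and 21 reads in the CD48hi libraries and 107, 35 and 97 reads in the CD48-/lo libraries, which did not overlap (log2 3.62 ± 1.09, edgeR adjusted p = 0.181).

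The enzymes that make O-glycan cores were all above 0, 4 of 4 with a median log2 of 0.73, and also without CD48hi replicates 4 and 5 (median 1.20, B3gnt6 then being at 0 in both CD48hi libraries left) and under both other scalings. The count was 3 of 4 by limma voom and without CD48hi replicate 1 (median 0.39) or CD48-/lo replicate 1 (0.52), 3 (1.0) or 4 (0.41). C1galt1 (ENSMUSG00000042460, mm10 chr6:7844842-7875687), the core 1 synthase, was at 26.9, 42.1, 49.7 and 88.1 CPM in CD48hi against 121, 67.0 and 170.5 CPM in CD48-/lo libraries. CD48hi replicate 5 lay above CD48-/lo replicate 3, and the other libraries were separated. The means were 51.7 ± 26.1 and 119.5 ± 51.7 CPM (SD, n = 4 and 3), a log2 difference of 1.21 ± 0.43 (edgeR adjusted p = 0.225) that was 1.79 without CD48hi replicates 4 and 5. C1galt1c1, its X-linked chaperone gene, was at 17.0, 35.6, 14.3 and 22.9 CPM against 39.0, 32.9 and 49.4 CPM. Only CD48hi replicate 3 reached the CD48-/lo range (log2 0.85 ± 0.35, edgeR adjusted p = 0.264). Gcnt1, the core 2 enzyme, did not separate, with 67.2 ± 22.1 CPM in CD48hi against 70.0 ± 8.39 CPM in CD48-/lo libraries (SD, n = 4 and 3, log2 0.06 ± 0.32, edgeR adjusted p = 0.946). B3gnt6, the core 3 enzyme, was at 0 in 3 of the 7 libraries.

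C1galt1 and St3gal1 were high in CD48-/lo replicates 1 and 4 and lower in replicate 3. The share of counts from mitochondrial genes was also lowest in replicate 3, at 2.61%, 0.482% and 2.91% in CD48-/lo replicates 1, 3 and 4 and between 0.138% and 0.40% in the CD48hi libraries. The summed CPM of 19 erythroid marker genes was 2470, 1590 and 3360 in those CD48-/lo libraries and 706 to 1110 in the CD48hi libraries. Most of these sums was Car2, at 1998, 1047 and 2454 CPM in the CD48-/lo libraries and 369 to 734 CPM in the CD48hi libraries. Of the 19 genes, 16 had a log2 difference above 0 and 3 below, among them Klf1 (-0.71) and Epor (-0.47). The part of the mitochondrial share or of the erythroid genes in the levels of C1galt1 and St3gal1 was not tested.

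The branching enzymes of N-glycans and Fut8 were all below 0, 6 of 6 with a median log2 of -0.78, also under both other scalings, and 5 of 6 by limma voom, with the replicate number as a block (median -0.71) and without CD48-/lo replicate 3. Without CD48hi replicates 4 and 5 the median was -0.33 and 5 of 6 were below 0. Mgat1 (ENSMUSG00000020346, mm10 chr11:49244191-49263030) encodes the enzyme that adds the first N-acetylglucosamine, on which every complex and hybrid N-glycan depends. It was at 146, 141, 193 and 176 CPM in CD48hi against 75.8, 91.0 and 82.6 CPM in CD48-/lo libraries. The groups were well apart, and the lowest CD48hi library, replicate 3, exceeded the highest CD48-/lo library. The ratio of CD48hi to CD48-/lo cells was 1.97 (log2 -0.98 ± 0.26, edgeR adjusted p = 0.144, DESeq2 adjusted p = 0.00369), and log2 was -0.79 without replicates 4 and 5 (edgeR adjusted p = 0.357).

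Fut8, the only enzyme that places the core fucose, was at 247, 231, 448 and 394 CPM in CD48hi against 170.4, 198 and 144 CPM in CD48-/lo libraries. All 3 CD48-/lo libraries were lower, and the gap was widest to replicates 4 and 5 (log2 -0.95 ± 0.31, edgeR adjusted p = 0.207, -0.49 without them). Mgat2, which opens the other branch and was the most abundant member per kilobase, behaved differently. It was at 53.4, 70.5, 322 and 264 CPM in the CD48hi libraries against 150.1, 100.2 and 74.8 CPM in the CD48-/lo libraries. The CD48hi libraries fell into a low and a high pair on either side of the CD48-/lo libraries, and log2 -0.71 ± 0.60 (edgeR adjusted p = 0.558) turned to 0.80 without replicates 4 and 5. Mgat4a, Mgat4b and Mgat5, which add further branches, had overlapping groups with log2 differences of -0.78, -0.78 and -0.12, which became -0.45, -0.20 and -0.17 without those libraries.

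**Figure D3:**
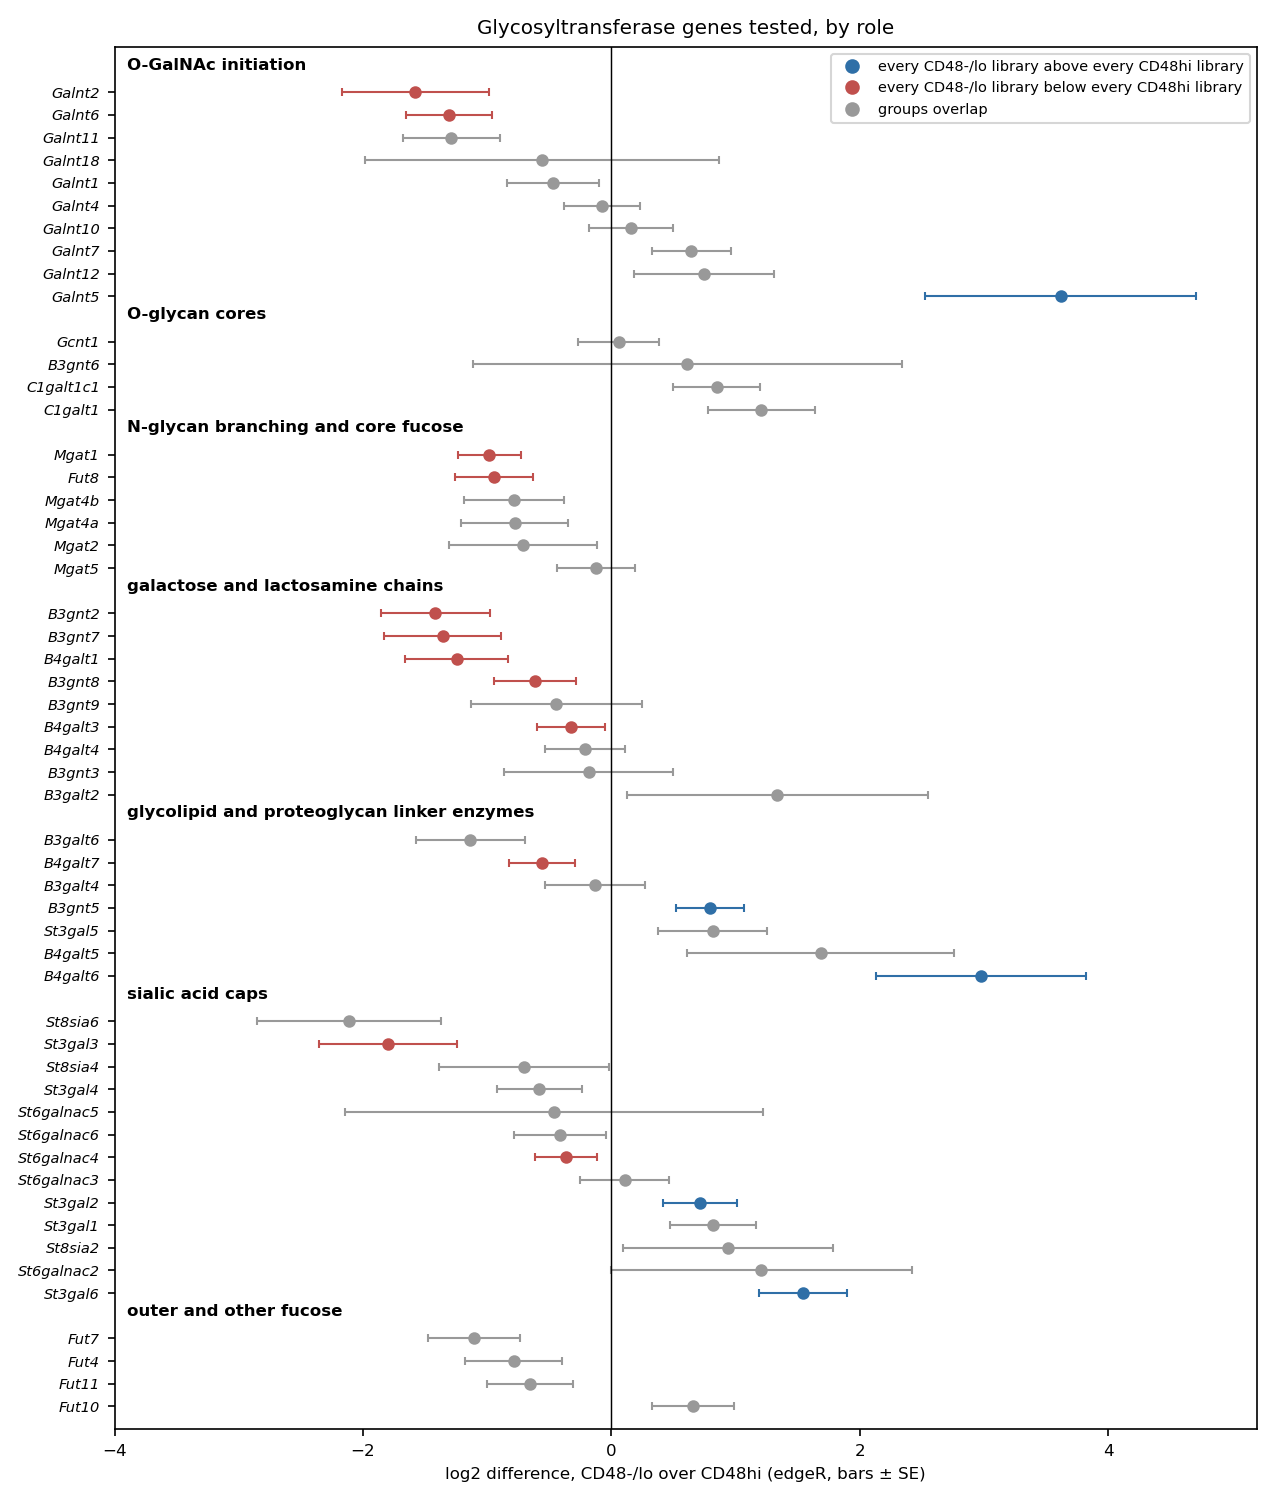
Log2 difference of CD48-/lo over CD48hi cells (x axis, edgeR, bars ± SE) for the 53 tested members, grouped by role. Blue points mark the 5 members with every CD48-/lo library above every CD48hi library, red points the 12 members with every CD48-/lo library below, and grey points members whose groups overlap.

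Most enzymes of galactose and lactosamine chains were below 0 (8 of 9 tested, median log2 -0.44). Without CD48hi replicates 4 and 5, 6 were below 0 and 3 above (median -0.36). The count below 0 was 7 with the replicate number as a block and without CD48hi replicate 4 or CD48-/lo replicate 3. It was 9 by limma voom and without CD48-/lo replicate 1. B4galt1, the main galactosyltransferase of N-glycans, was at 86.8, 103, 282 and 175 CPM in CD48hi against 59.6, 81.2 and 64.2 CPM in CD48-/lo libraries. The groups did not overlap, although CD48hi replicate 1 and CD48-/lo replicate 3 were close. The log2 difference was -1.24 ± 0.41 (edgeR adjusted p = 0.207), and -0.48 without CD48hi replicates 4 and 5. B3gnt2, which extends polylactosamine, was at 17.9, 9.78, 38.2 and 24.0 CPM against 7.61, 9.38 and 8.29 CPM (log2 -1.42 ± 0.44, edgeR adjusted p = 0.185, and -0.72 without CD48hi replicates 4 and 5). Its CD48hi replicate 3 was barely above the CD48-/lo libraries, and 58.6% of its exonic length is shared with Gm28048 on the same strand. B3gnt7 and B3gnt8, which also lengthen such chains, had no overlap either (3.24 against 8.31 and 5.24 against 8.0 CPM as means of CD48-/lo and CD48hi cells). B3galt5 had 67 reads in CD48hi libraries, 59 of them in replicate 4, and none in CD48-/lo libraries, at least 14.2-fold higher in CD48hi cells against the same floor of 3 counts. This bound rests on replicate 4 and was 2.22-fold without it (8 reads). Like that of St6gal1, it leaves out the spread between libraries. Leaving CD48hi replicate 4 out of both bounds was decided after seeing the data. The other untested members went the other way. B3galt1 had 1 read in CD48hi and 79 in CD48-/lo libraries, 75 of them in replicate 3. Galnt16 had 2 reads in CD48hi and 23 in CD48-/lo libraries, all 23 in replicate 4.

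Of the 7 enzymes of glycolipids and of the proteoglycan linker, 4 were above 0 and 3 below. B3gnt5, which starts lacto-series glycolipids, was at 10.1, 14.4, 12.2 and 15.5 CPM in CD48hi against 23.5, 21.6 and 22.8 CPM in CD48-/lo libraries. The CD48-/lo libraries were tightly grouped above all CD48hi libraries (log2 0.79 ± 0.28, edgeR adjusted p = 0.220), and the difference was 0.88 without CD48hi replicates 4 and 5. B4galt6, a lactosylceramide synthase, was rare, with 5, 15, 3 and 20 reads against 86, 116 and 28 reads (log2 2.98 ± 0.85, edgeR adjusted p = 0.172). St3gal5, the synthase of the ganglioside GM3, was at 5.63 ± 3.01 CPM in CD48hi against 9.91 ± 3.49 CPM in CD48-/lo libraries (SD, n = 4 and 3, edgeR adjusted p = 0.358). B3galt4, a ganglioside galactosyltransferase, had log2 -0.13. B4galt7 and B3galt6, which add the linker galactoses of proteoglycans, had log2 differences of -0.56 and -1.13, and B3galt6 went to -0.30 without CD48hi replicates 4 and 5.

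Of the fucosyltransferases other than Fut8, Fut7, which makes sialyl Lewis x on leukocytes, was at 9.92, 22.6, 21.1 and 20.5 CPM in CD48hi against 8.59, 6.41 and 10.8 CPM in CD48-/lo libraries. CD48hi replicate 1 lay within the CD48-/lo range and the other 3 were above it (log2 -1.11 ± 0.37, edgeR adjusted p = 0.207). Fut4, of the same pathway, had log2 -0.79, Fut11 -0.66 and Fut10 0.66, all with overlapping groups. Without CD48hi replicates 4 and 5 these became -0.19, -0.13 and 1.10. Over all members, 5 had every CD48-/lo library above every CD48hi library (St3gal6, St3gal2, B3gnt5, Galnt5 and B4galt6), beside 7.52% of all genes tested. Another 12 had every CD48-/lo library below (Mgat1, Fut8, B4galt1, B4galt3, B4galt7, B3gnt2, B3gnt7, B3gnt8, Galnt2, Galnt6, St3gal3 and St6galnac4), beside 7.06%. Of these, Galnt2 shares 90.0% of its exonic length with Gm20388 on the same strand, so its counted level may not reflect the whole gene.

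Levels of different genes were compared per kilobase of gene length. The 8 most abundant members (Mgat2, St3gal4, Fut8, B4galt1, Fut11, Mgat1, Galnt1 and B3galt6) held 59.1% of the summed CPM per kilobase, 14 members had a mean of at least 10 CPM per kilobase and 19 were below 1. Mgat2 led with 56.6 and St3gal4 followed with 39.6 CPM per kilobase as means over the 7 libraries, but the spread of Mgat2 between CD48hi libraries (67.9 ± 52.0, SD, n = 4) exceeded its distance to the genes next in order. The order differed by subset, since in CD48-/lo libraries C1galt1c1 (27.9 ± 5.75) and C1galt1 (19.6 ± 8.49, SD, n = 3) had higher means than Mgat1 (17.6), B4galt1 (16.1) and B3galt6 (15.1 CPM per kilobase).

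Shares were examined within the St3gal, Galnt, Mgat, B4galt, B3gnt and Fut families. Some shares separated every CD48-/lo library from every CD48hi library, CD48hi replicates 4 and 5 included, and those given here are among them. Every Mgat share overlapped, such as Mgat1 at 22.6 to 49.8% in CD48hi and 19.6 to 31.6% in CD48-/lo libraries. The share of B4galt1 overlapped as well (51.2 to 78.8% and 49.2 to 57.9%). St3gal4 made up 79.5, 76.6, 82.1 and 83.4% of the St3gal family's summed CPM per kilobase in CD48hi libraries against 64.7, 70.7 and 60.8% in CD48-/lo libraries. St3gal6 held 4.30, 2.30, 1.64 and 2.89% against 7.46, 8.67 and 11.7%, and St3gal5 2.89 to 4.54% against 5.24 to 9.94%. In each CD48-/lo library the share of St3gal4 was smaller, and the shares of St3gal5 and St3gal6 were larger, than in any CD48hi library.

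Within the Galnt family, Galnt6 held 40.0, 34.0, 33.4 and 33.8% in CD48hi libraries against 25.2, 20.1 and 14.4% in CD48-/lo libraries. Galnt7 held 9.85, 11, 7.85 and 11.4% against 20.7, 26.6 and 18.4%. Both genes separated all libraries by share, although the CPM of Galnt7 overlapped. In the Fut family, Fut10 held 4.01 to 5.13% against 8.05 to 14.2% and Fut8 43.8 to 47.7% against 34.6 to 41.6%. These shares are descriptions without a test, and shares within a family depend on each other.

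**Figure D4:**
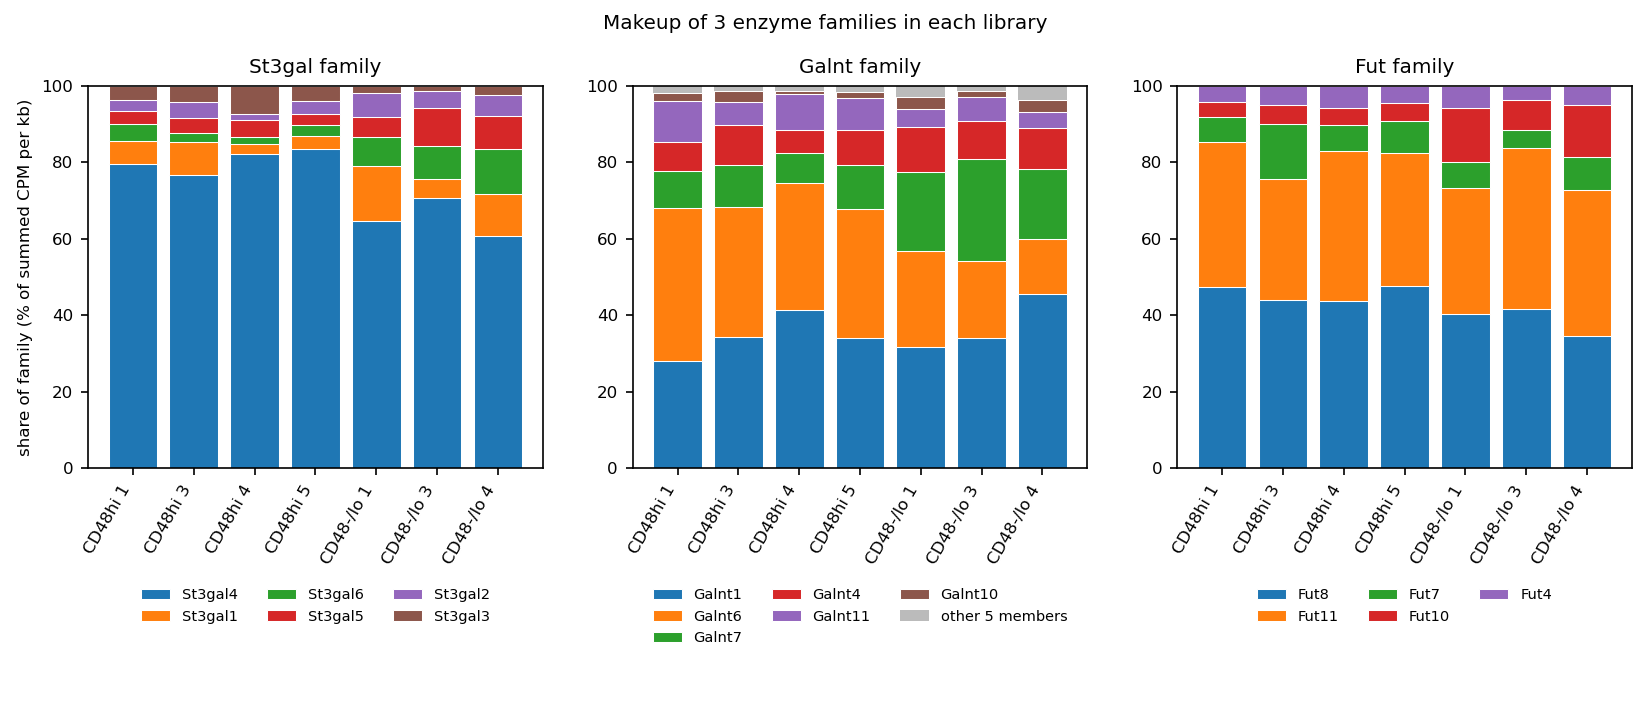
Share of each gene in the summed CPM per kilobase of the St3gal, Galnt and Fut families (y axis, percent) in each library. St3gal4 (76.6 to 83.4% in CD48hi, 60.8 to 70.7% in CD48-/lo) and Galnt6 (33.4 to 40.0%, 14.4 to 25.2%) take smaller shares in CD48-/lo libraries, and St3gal6 and Galnt7 larger ones.

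Promoters were read from RefSeq (GRCm38.p6) for 42 of the members, in 61 windows of 250 bases before a start site. They were searched on both strands for AGATAA, the motif of GATA factors, and its variant TGATAA, for CCGGAA of ETS factors, for GGGCGG of SP1 and for CCAAT, and no motif contains another. The GATA letters were in 11.5% of member windows and 10.1% of the 13060 windows of tested genes, CCGGAA in 11.5 and 21.8%, GGGCGG in 47.5 and 55.8%, and CCAAT in 34.4 and 35.6%. For 4 genes, the first listed window that overlaps no annotated exon is shown 5′ to 3′ on the gene's strand because these genes separated the subsets by level (St3gal6, Mgat1, Galnt6) or by share (Galnt6, Galnt7), and capitals mark matches on either strand. St3gal6, Mgat1 and Galnt6 have further windows at other start sites, so the matches named are those of 1 window a gene.
St3gal6, chr16:58524254-58524503, minus strand: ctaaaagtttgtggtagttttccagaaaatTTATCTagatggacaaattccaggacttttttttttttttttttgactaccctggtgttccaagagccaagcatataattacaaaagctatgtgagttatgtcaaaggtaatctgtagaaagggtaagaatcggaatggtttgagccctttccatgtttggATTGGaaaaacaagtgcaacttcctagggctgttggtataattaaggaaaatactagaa
Mgat1, chr11:49243941-49244190, plus strand: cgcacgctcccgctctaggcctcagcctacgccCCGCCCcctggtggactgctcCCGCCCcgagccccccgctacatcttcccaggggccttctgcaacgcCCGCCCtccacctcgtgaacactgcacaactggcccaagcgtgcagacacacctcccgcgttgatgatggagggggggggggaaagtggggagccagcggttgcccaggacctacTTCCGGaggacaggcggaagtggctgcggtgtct
Galnt6, chr15:100729377-100729626, minus strand: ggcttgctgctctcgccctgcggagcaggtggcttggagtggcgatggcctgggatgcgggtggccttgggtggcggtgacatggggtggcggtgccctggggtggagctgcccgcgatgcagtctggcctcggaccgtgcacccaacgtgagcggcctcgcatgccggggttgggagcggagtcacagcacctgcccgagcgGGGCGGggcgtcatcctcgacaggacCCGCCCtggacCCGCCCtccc
Galnt7, chr8:57653056-57653305, minus strand: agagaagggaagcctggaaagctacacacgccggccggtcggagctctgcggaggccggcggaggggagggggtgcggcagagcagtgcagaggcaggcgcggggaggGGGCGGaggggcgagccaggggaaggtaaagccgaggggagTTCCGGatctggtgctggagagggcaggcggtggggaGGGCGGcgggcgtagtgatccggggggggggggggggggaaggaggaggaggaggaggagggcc
The St3gal6 window shown holds 1 GATA match (TTATCT) and 1 CCAAT match (ATTGG) and has 34.8% G and C. The windows of Mgat1, Galnt6 and Galnt7 have 68.8, 72.8 and 73.6% G and C and 3, 3 and 2 SP1 matches, and those of Mgat1 and Galnt7 also hold 1 ETS match each (TTCCGG). A match is a description of letters and not a measured binding site.

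Genes that supply, precede or read these enzymes were counted from 5 lists, and edgeR called none of them at an adjusted p of 0.05. For each of the 5 lists, the shares to set beside its counts are those of all genes tested. At an unadjusted edgeR p under 0.05 these were 8.37% higher and 8.87% lower, and by DESeq2 2.47% higher and 3.06% lower. For sugar nucleotide synthesis and Golgi transport, 10 of 24 tested genes were above 0 and 14 below (median log2 -0.08), and 1 reached an unadjusted p under 0.05, lower in CD48-/lo cells and called by DESeq2. This was Gne, which starts sialic acid synthesis, at 123, 91.9, 219 and 162 CPM in CD48hi against 68.3, 84.5 and 70.3 CPM in CD48-/lo libraries, without overlap (log2 -1.0 ± 0.33, edgeR adjusted p = 0.207). Ugdh, which makes UDP-glucuronate, had log2 0.66, Galk1, a galactose kinase, -0.57, and Gmds, which starts GDP-fucose synthesis, -0.68. For N-glycan core assembly, transfer and trimming, 16 of 31 were above 0 and 15 below (median log2 0.06), with 5 higher and 3 lower before adjustment (p under 0.05) and none called by DESeq2. Alg6 and Alg11, which extend the lipid-linked precursor, had log2 1.18 and 1.0, the trimming mannosidase Man1a 0.91, and Ddost, a subunit of oligosaccharyltransferase, -1.08.

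Among 36 other glycosyltransferases tested, 15 were above 0 and 21 below (median log2 -0.28), with 1 higher and 6 lower before adjustment (p under 0.05) and 1 and 3 called by DESeq2. Ggta1, which adds the alpha-galactose cap, was at 58.7, 60.2, 95.0 and 87.0 CPM in CD48hi against 44.1, 32.0 and 25.6 CPM in CD48-/lo libraries, without overlap (log2 -1.15 ± 0.32, edgeR adjusted p = 0.163). B4galnt1, a ganglioside synthase, had log2 -1.32, and Ugt8a was at 0 in every CD48hi library and at 0.245, 1.18 and 2.31 CPM in CD48-/lo libraries. For lectins and glycan removal, 7 of 17 were above 0 and 10 below (median log2 -0.19), with 1 higher and 4 lower before adjustment (p under 0.05) and 1 and 3 called by DESeq2. Lgals1, the gene of galectin-1, was at 19.6, 43.0, 15.8 and 10.5 CPM against 2.77, 3.24 and 3.72 CPM (log2 -2.78 ± 0.50, edgeR adjusted p = 0.0541), and Lgals9 at 123, 247, 172 and 129 CPM against 607, 194 and 618 CPM (log2 1.5 ± 0.42, edgeR adjusted p = 0.164). Siglecf, which is also among the eosinophil markers, and Lgals3 had log2 -3.14 and -1.54.

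Of 27 genes of platelet glycoproteins that carry such chains, 15 were above 0 and 12 below (median log2 0.23), with 7 higher and 4 lower before adjustment (p under 0.05) and 2 and 1 called by DESeq2. Mmrn1, the gene of multimerin, was at 74.8, 148, 282 and 261 CPM in CD48hi against 763, 564 and 713 CPM in CD48-/lo libraries (log2 1.83 ± 0.41, edgeR adjusted p = 0.101). Gp5, a partner of glycoprotein Ib, was at 812, 377, 1991 and 828 CPM against 268, 465 and 311 CPM, overlapping at CD48hi replicate 3 (log2 -1.53 ± 0.50, edgeR adjusted p = 0.204). Cd36 was rare, at 0.0154, 0, 0.0193 and 0.0487 CPM in CD48hi against 1.11, 0.42 and 0.586 CPM in CD48-/lo libraries. Its log2 of 4.92 thus rests on CD48hi values near 0. Podxl had log2 1.54. Of the sort genes, Cd48 followed the gate, at 28.9 ± 11.8 CPM in CD48hi against 10.1 ± 4.65 CPM in CD48-/lo libraries (SD, n = 4 and 3). Kit (378 and 383 CPM), Slamf1 and Itga2b were present in all. Itga2b was at 1372 ± 454 CPM in CD48hi against 843 ± 85.9 CPM in CD48-/lo libraries, with overlapping groups (log2 -0.70 ± 0.30, edgeR adjusted p = 0.272).

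Sums of marker genes of other cells separated the groups for some lists and overlapped for others. The summed CPM of 14 granulocyte-monocyte progenitor genes was 642 to 912 in CD48hi and 318 to 424 in CD48-/lo libraries, while 16 megakaryocyte genes gave 6450 to 7970 and 6040 to 8600 CPM. For basophil, mast cell and eosinophil genes (11 of 14 in the table, without Cma1, Tpsb2 and Ear1) the sums were 462, 757, 1320 and 1320 CPM in CD48hi replicates 1, 3, 4 and 5 and 495 to 655 CPM in CD48-/lo libraries, so replicates 4 and 5 were the highest here as well. Most of that sum was Gata2 and Kit, which MkPs express too. The basophil granule genes Mcpt8 and Prss34 were at 16.7 and 33.0 CPM in replicate 4, 17.2 and 36.9 CPM in replicate 5, 8.52 and 12.8 CPM in replicate 1 and 8.68 and 14.7 CPM in replicate 3. In CD48-/lo libraries both were at or near 0 (up to 0.849 CPM). Of the 11 genes, 9 were below 0 and 2 above, and DESeq2 called 5 lower and 0 higher, beside 3.06% and 2.47% of all genes tested. The 2 above 0 were Kit and Fcer1a, the latter at 10.6 ± 7.19 CPM in CD48-/lo against 4.94 ± 0.97 CPM in CD48hi libraries (SD, n = 3 and 4). Prg2 and Epx were highest in CD48-/lo replicate 3 (21.6 and 3.38 CPM), although the log2 difference of Epx was -0.87. Of 13 stem cell genes tested, 11 were above 0. Among these, 7 had an unadjusted edgeR p under 0.05, beside 8.37% of all genes tested, and DESeq2 called 5 higher, beside 2.47%. The sums of the stem cell genes overlapped narrowly, at 974 to 1130 CPM in CD48-/lo against 777 to 981 CPM in CD48hi libraries. Sums of monocyte, mature neutrophil and lymphoid genes overlapped between the groups, but most monocyte and lymphoid genes were lower in CD48-/lo cells. Of 12 monocyte and dendritic cell genes tested, 8 were below 0 and 4 above, and DESeq2 called 5 lower and 1 higher. Of 6 lymphoid genes tested, 5 were below 0 and 1 above, with 3 called lower and 0 higher. The shares of all genes tested were 3.06% lower and 2.47% higher. Lyz2, in the monocyte sum, was at 78.0 to 146 CPM in CD48hi and 147 to 309 CPM in CD48-/lo libraries. The part of these cells in the levels of the members was not tested, and in bulk libraries fewer cells of a type and less RNA per cell cannot be told apart.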

How the data were processed

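RNA of 7 sorted samples was reverse transcribed from poly(A) tails with template switching, amplified, tagmented and sequenced. The authors' processing notes and methods name FastQC for quality control, GSNAP for alignment to mm10 and featureCounts (2.0.1) for counting reads with a unique alignment. Whether counting used strand was not stated, so reads of a gene and of an overlapping or antisense gene may be mixed. The deposited raw counts are whole numbers without normalization, and every gene in the table has at least 11 counts. Further tables that the authors deposited (normalised counts from DESeq2 1.30.1 in R 3.5.1, variance-stabilised and scaled values and principal components) were not used.

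Groups came from the sample titles. Genes were filtered with filterByExpr, scaled by TMM and tested with edgeR 4.0.16 (R 4.3.3, quasi-likelihood, Benjamini-Hochberg over 16653 genes), with limma 3.58.1 voom and DESeq2 1.42.0 (the study's tool) as alternatives. The filter kept 99.95% of counts. Log2 differences are CD48-/lo over CD48hi with a prior count of 0.125, and errors after ± are SE for log2 differences and SD for levels. The fits were tested on simulated data. Depth was high, so the spread between libraries limited precision more than counting error did (biological coefficient of variation 0.503). Named members were those called, the 10 with the smallest p, the most abundant per kilobase in each family, 10 of known role in platelet or leukocyte glycans, and those with 0 counts in one group, with up to 4 genes for each further list, of which 1 is not reported here. St3gal2, Galnt7, B3gnt5, B3gnt7, B3gnt8, St3gal5 and the members given by log2 difference only were added after their values were seen. Members and lists were chosen with earlier results of these data known. GENCODE M21 holds 79 protein-coding entries that meet the naming rule, and the 22 outside the table were not analysed here.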

Additional observations from a re-analysis of the deposited data

Results flagged for a closer look

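Of 23 groups of 4 CD48hi libraries examined, 2 had a library far from the other 3, and chance gives about 1 in 20 such groups. B3galt5 was at 1.136 CPM in CD48hi replicate 4, whereas the other 3 CD48hi libraries were at or below 0.0975 CPM. Fut7 was at 9.92 CPM in CD48hi replicate 1 and between 20.5 and 22.6 CPM in the other 3.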

How the results depend on the processing

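No member was called by edgeR under any alternative run, and DESeq2 called 12 and limma voom 3. Over all genes, edgeR's 32 calls became 57 with RLE scaling, 10 without a filter on low counts, 64 with a filter of 1 CPM in 3 libraries, and 187 at an adjusted p of 0.1, and DESeq2 gave 918 and limma voom 393. Leaving out 1 library gave 1 to 72 calls, the fewest without CD48hi replicate 3 (1), CD48-/lo replicate 4 (3) and CD48hi replicate 5 (4) and the most without CD48-/lo replicate 3 (72). Without both CD48hi replicates 4 and 5, an alternative added after seeing the data, there were 0 calls and the median of the members was -0.080, while it stayed between -0.50 and -0.26 when 1 library was left out. Deviations from the group means were not positively correlated between libraries of the same replicate number (-0.0797, -0.145 and -0.0332). These values cannot tell whether such libraries share mice or a sort, and the labels do not say. The replicate block gave 16 calls over all genes, none among the members, a median of -0.23 and a turned sign for Mgat2 (0.032). Signs also turned for Gcnt1, at -0.00063 by limma voom and between -0.22 and 0.21 when 1 library was left out, and, without both CD48hi replicates, for Mgat2 (0.80) and Galnt1 (0.21). For the named members, 333 values over the alternatives kept direction and side of the threshold, 15 passed it and 7 turned sign. The causes were not tested.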
